A study of Mus musculus with 29 samples.

Results

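mmu-miR-192-5p, mmu-miR-194-5p and mmu-miR-215-5p (here without the species prefix) are 3 microRNAs (miRNAs, short RNAs that silence matching messenger RNAs) chosen by name from the 1183 miRNAs listed in a study of mouse muscle and serum. All 3 are among the 695 miRNAs with a value in each of the 29 libraries. The study sequenced small RNA of a fast-twitch shin muscle, the tibialis anterior, and of serum from C57BL/6 mice. Young mice were 6 months old, old mice were 24 months old, and disuse mice were 6 months old and had muscle atrophy induced by disuse, with no other allele or agent named in the labels. Each age or disuse group had 5 muscle libraries and 5 serum libraries, except that old serum had 4. The sources used here give neither the way disuse was imposed nor the sex of the mice.

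The 3 miRNAs come from a pair of duplicated clusters that are known for strong expression in the epithelia of the intestine and kidney and in hepatocytes. Transcription of these clusters is known to be driven by hepatocyte nuclear factors and to respond to p53, and their products restrain proliferation and help set epithelial identity. miR-192-5p has also been studied in blood as a marker of liver injury. A miRNA finds its targets mainly through its seed, bases 2 to 8 from the 5′ end, so miRNAs with the same seed share many targets.

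The mature sequences are shown because the results turn on which of the 3 share a seed and which share a cluster. They are taken from RefSeq (GRCm38.p6), 5′ to 3′, with the seed in capitals.
miR-192-5p: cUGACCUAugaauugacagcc
miR-215-5p: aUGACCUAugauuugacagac
miR-194-5p: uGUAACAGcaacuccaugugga
miR-192-5p and miR-215-5p carry the same seed, which no other name among the 1679 mature mouse miRNAs in the RefSeq table shares. They are identical at 18 of 21 positions (85.7%). From miR-192-5p to miR-215-5p the differences, counted from 1 at the 5′ end, are C1A, A12U and C20A. miR-194-5p has another seed, found under no other name in the table, and matches miR-192-5p at 5 of 21 positions when both are aligned at the 5′ end. The sources used here do not say how reads matching miR-192-5p and miR-215-5p almost equally well were assigned, so their counts may be split between them.

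In each cluster a miR-194 hairpin lies upstream of a hairpin of the miR-192 and miR-215 pair, all on the plus strand. On chromosome 1, Mir194-1 (chr1:185313319-185313385) and Mir215 (chr1:185313581-185313692) are 195 bases apart. GENCODE places Mir215 in an exon and Mir194-1 in an intron of the antisense RNA 2010103J01Rik, and both lie within an intron of Iars2, the mitochondrial isoleucyl-tRNA synthetase, which is on the opposite strand. On chromosome 19, Mir194-2 (chr19:6264643-6264728) and Mir192 (chr19:6264844-6264932) are 115 bases apart and lie in no other annotated gene. The nearest genes are Atg2a, an autophagy gene whose 3′ end is 2307 bases from Mir194-2, and the long noncoding RNA Gm14963, 3862 bases from Mir192. The mature miR-194-5p of the 2 loci is the same sequence, so its counts cannot be told apart by locus, whereas miR-192-5p and miR-215-5p each come from a single locus.

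**Figure D1:**
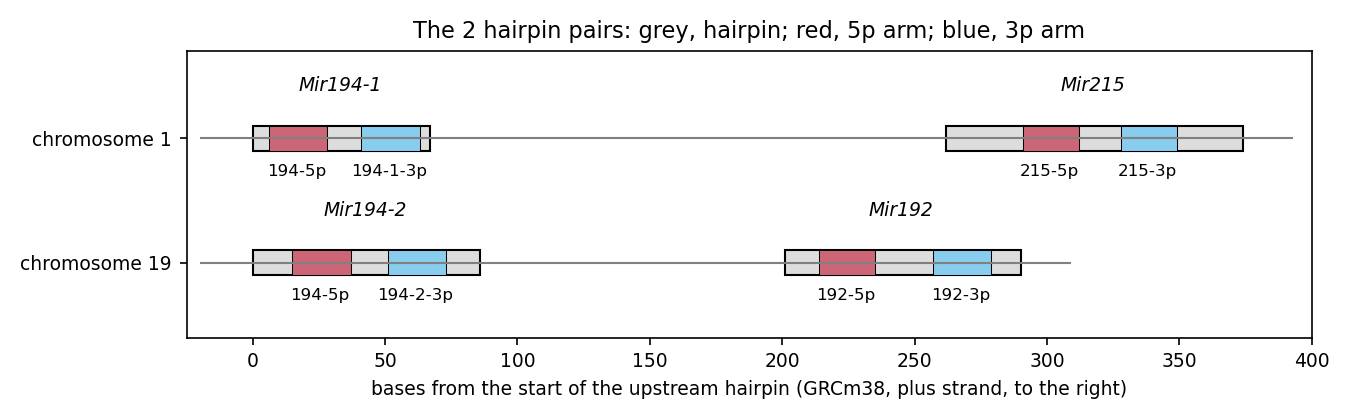
Map of the 2 hairpin clusters, drawn to scale as distance in bases from the start of the upstream hairpin, with hairpins and mature arms as boxes. In both clusters miR-194 is upstream, followed by miR-215 after 195 bases in one and by miR-192 after 115 bases in the other.

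Muscle libraries held 254624 to 5943445 counts and serum libraries 45176 to 309133. The tissue labels fit the summed muscle markers: 7 muscle miRNAs summed to 334857 to 545537 CPM in muscle libraries and to 923 to 3705 CPM in serum. miR-133a-3p carried most of the muscle sum, with a mean of 460629 CPM against 768 CPM for miR-1a-3p. Values in CPM are counts relative to the library total, with totals adjusted by edgeR's TMM factors within each source. In such bulk samples fewer cells of a type and less RNA per cell cannot be told apart, and serum mixes RNA of many organs and blood cells. The levels of different miRNAs also depend on how efficiently each is ligated, so orders of level between miRNAs are orders of counts.

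In serum, miR-192-5p and miR-215-5p were abundant and miR-194-5p was not, although miR-194 is encoded in both clusters. Of all counts, the 3 miRNAs together made up 1.33% ± 0.367 (SD, n = 5) in young serum, 2.68% ± 0.660 (SD, n = 4) in old serum and 1.29% ± 0.338 (SD, n = 5) in disuse serum. In muscle their summed share was 0.0058% in young, 0.0060% in old and 0.0045% in disuse libraries. By count, miR-192-5p ranked between 18 and 28 in the young serum libraries, between 9 and 14 in old serum and between 18 and 20 in disuse serum. miR-215-5p ranked between 27 and 41, between 16 and 26 and between 27 and 37 in the same groups. The best rank of miR-194-5p in any serum library was 102. In muscle the best ranks were 137 for miR-192-5p, 232 for miR-194-5p and 327 for miR-215-5p, so the order of miR-194-5p and miR-215-5p was turned round between the sources.

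In young serum, miR-192-5p stood at 5332, 11198, 10715, 8969 and 9886 CPM (libraries 1 to 5). In old serum it stood at 20825, 27130, 18267 and 12624 CPM. In disuse serum it stood at 10365, 7659, 10839, 8955 and 6821 CPM. The old libraries lie above all young and disuse libraries without overlap, and old serum 4, the shallowest serum library with 45176 counts, is the lowest of them. As a plain share of counts the groups touched: miR-192-5p reached 1.28% in a young library and was 1.27% in old serum 4.

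In young serum, miR-215-5p stood at 3807, 4403, 4508, 3725 and 2610 CPM. In old serum it stood at 9028, 8758, 7089 and 5036 CPM. In disuse serum it stood at 4896, 3347, 4459, 2725 and 2739 CPM. Again each old library lies above each young and each disuse library, by a narrow margin for old serum 4. As a plain share the lowest old library was at 0.507%, below the highest young library at 0.537% and the highest disuse library at 0.575%.

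miR-194-5p was counted 5 to 54 times per serum library. In young serum it stood at 215, 204, 154, 117 and 151 CPM. In old serum it stood at 169, 89.7, 190 and 110 CPM. In disuse serum it stood at 78.2, 102, 158, 147 and 114 CPM. The 3 groups overlap, and the few counts behind each value limit what can be seen.

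**Figure D2:**
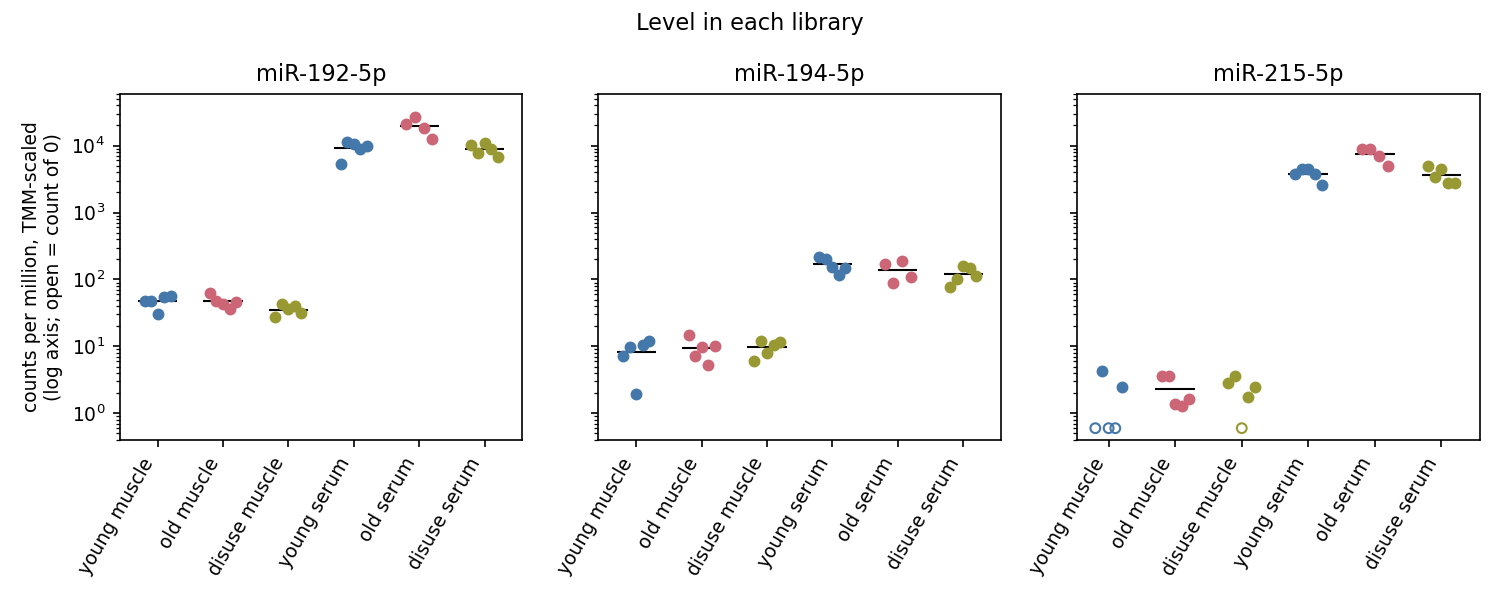
Level of each of the 3 miRNAs in every library, as CPM on a log axis, for the 6 groups, with points for libraries, open points for a count of 0 and bars for the mean of groups without such a library. miR-192-5p and miR-215-5p in the 4 old serum libraries (from 12624 and 5036 CPM upward) sit above the young and disuse serum libraries, while the miR-194-5p groups overlap.

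Old serum was compared with young serum to ask how circulating miRNAs differ with age. miR-192-5p was 2.14-fold higher in old serum (log2 fold change 1.10 ± 0.26 SE, 95% interval 0.55 to 1.64, edgeR adjusted p = 0.0173). Its mean rose from 9220 ± 2333 CPM (SD, n = 5) to 19712 ± 6016 (SD, n = 4). miR-215-5p was 1.96-fold higher (log2 fold change 0.97 ± 0.25 SE, 95% interval 0.45 to 1.49, edgeR adjusted p = 0.0187), at 3811 ± 756 CPM (SD, n = 5) in young and 7478 ± 1840 (SD, n = 4) in old serum. The pair with the shared seed thus passed the test in the same direction, against 16 of the 165 miRNAs tested (9.7%) in either direction and 4 of 165 (2.42%) that were higher. miR-194-5p did not pass: its log2 fold change was -0.25 ± 0.32 SE, and its 95% interval of -0.93 to 0.43 does not reach the estimates for the other pair. The call for miR-192-5p was lost without old serum 2 (log2 fold change 0.90, edgeR adjusted p = 0.0782), when only 1 miRNA in all still passed. The call for miR-215-5p was lost without old serum 1 (0.87, edgeR adjusted p = 0.0657) or old serum 2 (0.88, edgeR adjusted p = 0.0782), and with plain library totals in place of TMM factors (0.91, edgeR adjusted p = 0.137).

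Disuse serum was compared with young serum to ask whether wasting without old age goes with a like change. None of the 3 miRNAs passed, and neither did any of the 165 tested (0%), of which 20 had an unadjusted p under 0.05. Other scalings, filters and tools gave between 0 and 5 calls. miR-192-5p stood at 8928 ± 1715 CPM (SD, n = 5) in disuse serum, a log2 difference from young of -0.05 (95% interval -0.56 to 0.47) whose sign turned under other scalings. For miR-215-5p the difference was -0.07 (95% interval -0.56 to 0.42), again with a sign that turned, and its disuse mean was 3633 ± 998 CPM (SD, n = 5). The upper bounds lie below the log2 estimates of 1.10 and 0.97 for old serum. For miR-194-5p the difference was -0.49 (95% interval -1.11 to 0.14).

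Old and disuse serum were also set against each other, using the same old libraries as the comparison with young serum. miR-192-5p and miR-215-5p had the smallest p of the 165 miRNAs, of which 4 passed (2.42%) and 3 were higher in old serum (1.82%). miR-192-5p was 2.21-fold higher in old serum (log2 fold change 1.14 ± 0.26 SE, edgeR adjusted p = 0.0304). miR-215-5p was 2.06-fold higher (1.04 ± 0.25 SE, edgeR adjusted p = 0.0304). miR-194-5p differed by 0.24 on the log2 scale (95% interval -0.45 to 0.92). Leaving out a library at a time kept the pair past the threshold in 6 of 14 cases, with log2 fold changes of 0.94 to 1.27 for miR-192-5p and 0.94 to 1.17 for miR-215-5p. The calls were also lost with library totals (edgeR adjusted p = 0.102 for miR-192-5p and 0.249 for miR-215-5p), with no filter (0.0627 and 0.154) and with a filter of 10 CPM (0.0582 and 0.0592). A replicate block ended both calls too (edgeR adjusted p = 0.0617 for each), and upper-quartile factors ended that of miR-215-5p (0.0520). Leaving out single libraries had the same effect on both calls in several cases. These were the fits without young serum 3, old serum 1, 2 or 3, or disuse serum 2, 3, 4 or 5 (edgeR adjusted p up to 0.167).

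In muscle all 3 miRNAs were scarce. miR-192-5p stood at 47.4, 48.3, 30.6, 54.2 and 57.5 CPM in young, at 62.8, 47.9, 43.4, 36.3 and 46.3 CPM in old and at 27.5, 42.7, 36.1, 39.5 and 31.8 CPM in disuse muscle. The ranges overlap between all groups, on 9 to 348 counts per library. Old against young muscle gave a log2 fold change of -0.02 ± 0.21 SE (95% interval -0.47 to 0.42; the sign turned under other filters), where 20 of 341 miRNAs (5.87%) passed. Disuse against young muscle gave -0.44 ± 0.22 SE (95% interval -0.90 to 0.02, edgeR adjusted p = 0.583), where 1 of 341 (0.293%) passed. Old against disuse muscle gave 0.42 ± 0.21 SE (95% interval -0.01 to 0.86, edgeR adjusted p = 0.376), where 12 of 341 (3.52%) passed.

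miR-194-5p was counted 1 to 83 times per muscle library. Its levels were 7.29, 9.85, 1.91, 10.5 and 12.2 CPM in young muscle, 15.0, 7.23, 9.64, 5.18 and 10.0 CPM in old muscle, and 6.07, 12.0, 8.02, 10.5 and 11.8 CPM in disuse muscle. The groups overlap fully. The log2 differences were 0.07 for old against young (95% interval -0.66 to 0.79), 0.11 for disuse against young (95% interval -0.64 to 0.86) and -0.04 for old against disuse (95% interval -0.70 to 0.62). Each of these signs turned under at least 1 other scaling.

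miR-215-5p was scarce in muscle and did not pass the filter on low counts there. It had 15 counts in all in young muscle, with 3 of 5 libraries at 0, 39 counts in old muscle, with none at 0, and 32 in disuse muscle, with 1 at 0. The highest level in a muscle library with a count was 4.22 CPM. In the libraries at 0, the limit set by that count (3 counts of the library total) was 5.60 to 11.8 CPM, above that level. Fitted without the filter, its log2 differences were 0.17 for old against young, 0.22 for disuse against young and -0.04 for old against disuse muscle (edgeR adjusted p = 0.914, 0.967 and 1.00), on these few counts.

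**Figure D3:**
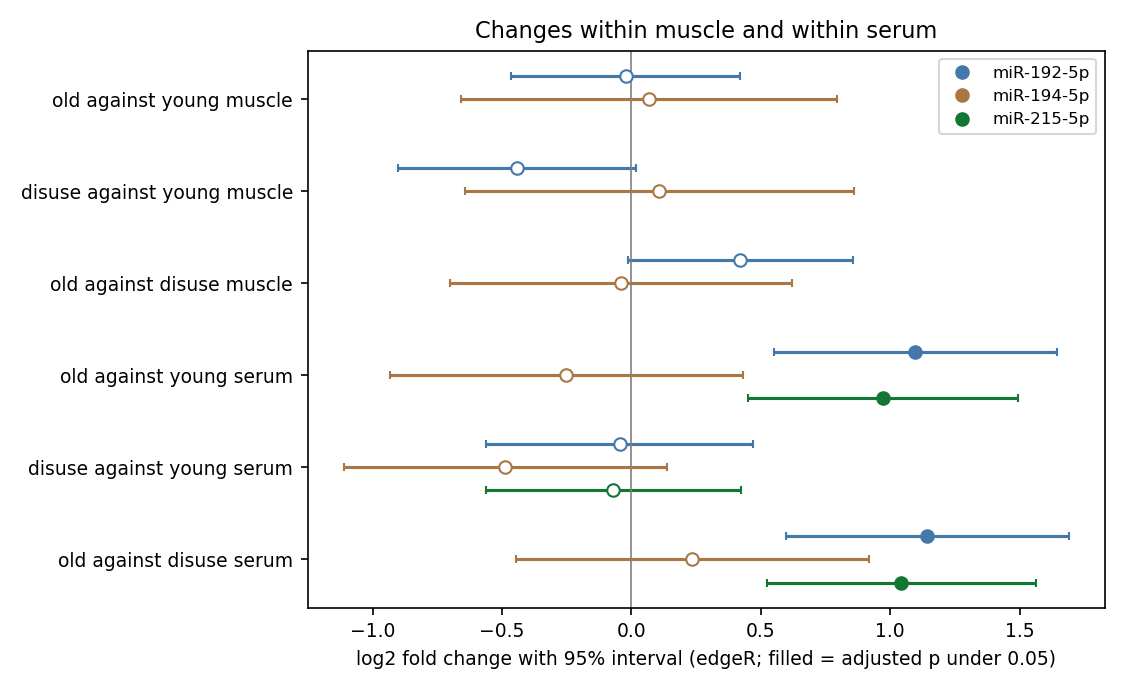
Log2 fold changes of the 3 miRNAs in each comparison with 95% intervals from edgeR, filled where the adjusted p was under 0.05. miR-192-5p and miR-215-5p are filled in old against young serum (1.10 and 0.97) and in old against disuse serum (1.14 and 1.04). In the muscle comparisons and in disuse against young serum every interval drawn crosses 0, and miR-215-5p did not pass the filter in muscle.

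An interaction term fitted to all 29 libraries asked whether the age difference in serum exceeds that in muscle. For miR-192-5p the age change was 1.25 ± 0.34 SE larger in serum on the log2 scale (95% interval 0.55 to 1.95). It did not pass the adjustment (edgeR adjusted p = 0.0753), while 2 of 241 miRNAs did (0.83%). The call depended on the setting: miR-192-5p passed with DESeq2's factors (edgeR adjusted p = 0.0188), upper-quartile factors (edgeR adjusted p = 0.0344) and DESeq2's test (adjusted p = 0.0033). It also passed in 9 of 29 fits without a library. In those 9 fits 3 to 9 miRNAs passed in all (9 without young muscle 5). miR-194-5p and miR-215-5p entered this fit through their serum counts, and their values are not read here. In the same test for disuse no miRNA of 241 passed (0%), with 24 at an unadjusted p under 0.05 and 0 to 5 calls under other settings and tools. The value for miR-192-5p was 0.62.

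miR-192-5p and miR-194-5p were higher in serum than in muscle in each age or disuse group, by different factors. In young mice miR-192-5p was 127-fold higher in serum (95% interval 69.3 to 234) and miR-194-5p 11.7-fold (6.11 to 22.4). In old mice the factors were 304 (191 to 483) and 10.7 (6.25 to 18.3). In disuse mice they were 186 (137 to 254) and 8.78 (5.99 to 12.9). Each passed edgeR's test, as did 76.3% of miRNAs in young, 69.3% in old and 86.5% in disuse mice, in either direction. Higher in serum were 32.6%, 24.7% and 38% of those tested. In young and disuse mice miR-194-5p met the filter on low counts through serum alone, and miR-192-5p did so with the help of serum. The filter thus chose both by the source in which they are high. For these mice the folds are given as sizes, and passing the test is not read. miR-215-5p entered the tests of all groups through its serum counts alone and was at 0 in some muscle libraries, so no fold or test is given for it. It stood at 2610 to 9028 CPM in serum libraries and at 0 to 4.22 CPM in muscle libraries. RNA extraction and input differed between serum and muscle in every library, and their part cannot be told apart from the source.

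Ratios of 2 miRNAs within a library do not depend on scaling and compare the 3 miRNAs directly. Each was taken as a log2 ratio of counts with 0.5 added, and groups were compared with 2-sided exact permutation tests, 27 in all. In serum the miR-192-5p to miR-215-5p ratio was 1.25 ± 0.51 (SD, n = 5) in young, 1.38 ± 0.18 (SD, n = 4) in old and 1.32 ± 0.24 (SD, n = 5) in disuse libraries. The old and young means differed by 0.13 (exact permutation p = 0.698). The miR-192-5p to miR-194-5p ratio was 5.73 ± 0.65 (SD, n = 5) in young serum, 7.09 ± 0.75 (SD, n = 4) in old and 6.20 ± 0.47 (SD, n = 5) in disuse serum. All 4 old libraries were above all 5 young ones, a difference of 1.36 (exact permutation p = 0.0159, the smallest that 4 against 5 can give, adjusted p = 0.0857). The miR-194-5p to miR-215-5p ratio was lower in old than in young serum by as clear a separation (difference -1.23, exact permutation p = 0.0159, adjusted p = 0.0857). Neither passed the adjustment over the 27 tests, and miR-194-5p rests on few counts. In muscle the miR-192-5p to miR-194-5p ratio was 2.53 ± 0.53 (SD, n = 5) in young and 1.84 ± 0.27 (SD, n = 5) in disuse libraries, without overlap (difference -0.69, exact permutation p = 0.0079, adjusted p = 0.0857). Without young muscle 3, which held a single count of miR-194-5p, the difference was -0.46.

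Set side by side with no test, the miR-192-5p to miR-194-5p ratio was also higher in serum than in muscle. The mean difference was 3.20 log2 units in young, 4.73 in old and 4.37 in disuse mice. No serum library overlapped a muscle library of the same age or disuse group. Ratios to miR-215-5p in muscle depend on the added 0.5 where its count was 0, so they are not compared between the sources.

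**Figure D4:**
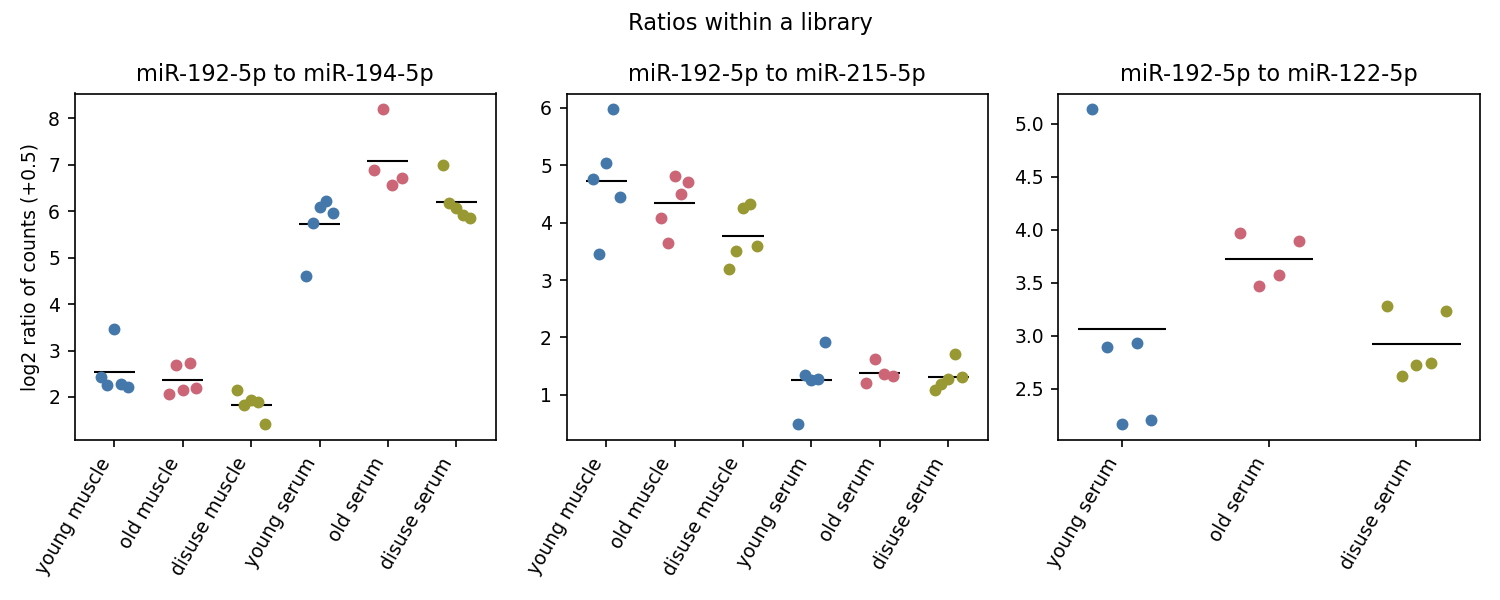
Log2 ratios between the 3 miRNAs in each library, by group, from counts with 0.5 added, with bars at the group mean. The miR-192-5p to miR-194-5p ratio in the 4 old serum libraries lies above that of the 5 young serum libraries, while the miR-192-5p to miR-215-5p ratio overlaps in all serum groups.

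Across the 14 serum libraries miR-192-5p and miR-215-5p varied together, with Pearson r = 0.86 (permutation p = 0.0002, adjusted p = 0.0007 over 4 relations) and Spearman rho = 0.83 (permutation p = 0.0005, adjusted p = 0.0018). Without old serum 1 and 2, the libraries farthest from the median of miR-192-5p, r was 0.70. With the group means removed it was 0.57, for which no p was computed, and no group holds enough libraries for an r of its own. The permutations crossed the groups, so the p-values do not separate differences between groups from variation within them. All values share the library's scaling and its depth. miR-194-5p, counted 5 to 54 times per serum library, had no relation in serum that passed. To miR-192-5p it had r = -0.11 and rho = 0.04 (permutation p = 0.701 and 0.893, adjusted p = 0.934 and 0.939), and r = 0.07 without 2 libraries. To miR-215-5p it had r = -0.01 and rho = 0.02 (permutation p = 0.964 and 0.939, adjusted p = 0.964 and 0.939), and r = 0.37 without 2 libraries. These r were -0.16 and -0.01 with the group means removed, and 0.14 and 0.32 with library totals. The few counts limit what can be seen. Across the 15 muscle libraries miR-192-5p and miR-194-5p had r = 0.60 (permutation p = 0.0132, adjusted p = 0.0265) and rho = 0.54 (permutation p = 0.0404, adjusted p = 0.0809), with r = 0.54 without 2 libraries and 0.89 with the group means removed. With library totals in place of TMM factors r was 0.49 and did not pass (permutation test, adjusted p = 0.174).

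**Figure D5:**
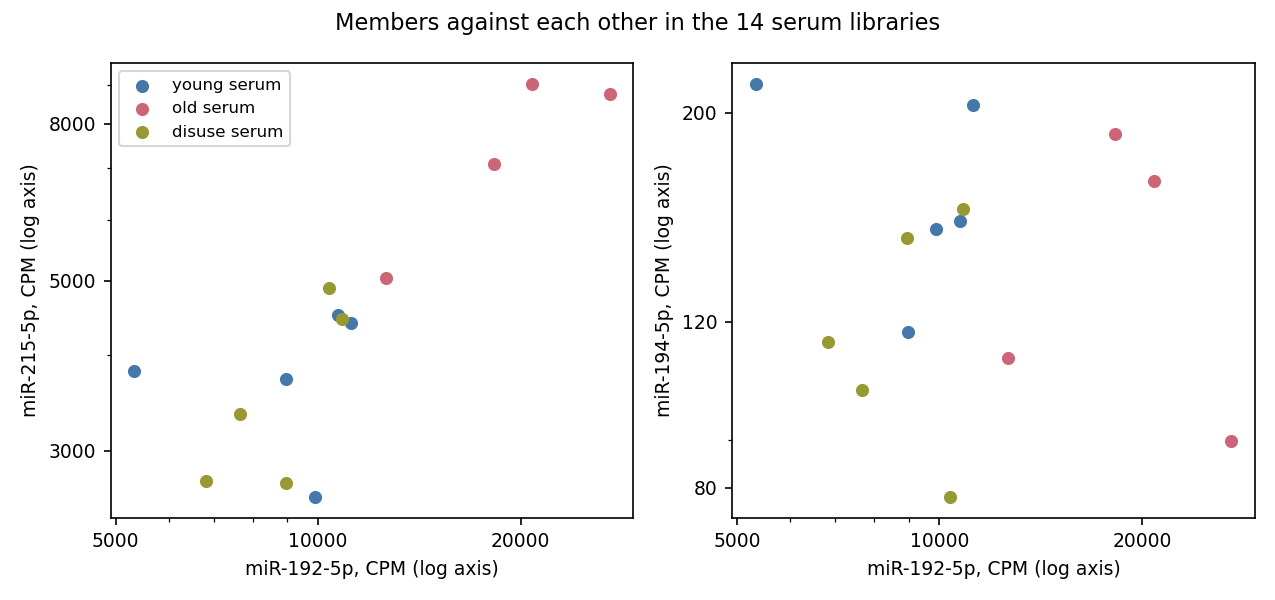
miR-215-5p and miR-194-5p against miR-192-5p in the 14 serum libraries, as CPM on log axes, coloured by group. miR-215-5p rises with miR-192-5p (r = 0.86), with the old libraries at the upper right, while miR-194-5p shows no clear slope (r = -0.11).

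Over the same 14 serum libraries, the miRNAs whose log2 CPM was most like miR-192-5p, of 164 ranked, were miR-146a-5p, a regulator of inflammatory signalling (r = 0.89), miR-30d-5p (0.87), miR-215-5p (0.86), miR-132-3p (0.69) and miR-10a-5p (0.66). miR-215-5p was most like miR-192-5p (0.86), followed by miR-29a-3p (0.83), miR-132-3p (0.77), miR-146a-5p (0.77) and miR-21a-5p (0.76). miR-194-5p was most like miR-204-5p (0.73), and miR-192-5p ranked 104 in its list. miR-122-5p, the miRNA that makes up most of the hepatocyte pool, ranked 10 for miR-192-5p with r = 0.62, or 0.84 with the group means removed. It ranked 46 for miR-215-5p (r = 0.23, or 0.16 with the group means removed). For miR-194-5p it ranked 129 (r = -0.22, and -0.22 with the group means removed). For the leading miRNAs of miR-192-5p, r with the group means removed was 0.68 for miR-146a-5p, 0.85 for miR-30d-5p, 0.57 for miR-215-5p, 0.53 for miR-132-3p and 0.57 for miR-10a-5p. For those of miR-215-5p after miR-192-5p it was 0.59 for miR-29a-3p, 0.69 for miR-132-3p, 0.35 for miR-146a-5p and 0.57 for miR-21a-5p, so part of these likenesses lies in the differences between groups.

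The other strands of the hairpins were rare. They are shown because their counts identify which arm accumulated. Their seeds are in capitals.
miR-192-3p: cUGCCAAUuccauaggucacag
miR-215-3p: uCUGUCAUucuguaggccaau
miR-215-3p was counted 79 times against 10529 counts of miR-215-5p in serum, which is 0.745% of the pair's counts (exact 95% binomial interval 0.590 to 0.927%), and it was seen in 13 of 14 serum libraries. miR-192-3p was counted 9 times against 26881 counts of miR-192-5p, or 0.0335% (0.0153 to 0.0635%). In muscle both were at 0, against 1507 counts of miR-192-5p and 86 of miR-215-5p. miR-194-1-3p, the other arm of Mir194-1, had 6 counts in muscle and 3 in serum. Such counts are too few to compare groups.

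Markers of the tissues that are known to hold these miRNAs were summarised in old against young serum, beside a median log2 fold change of -0.09 over all 165 tested. Of 4 liver miRNAs tested none passed, with a median of -0.36. miR-148a-3p was at -0.80 ± 0.52 SE and miR-122-5p at 0.09 ± 0.49 SE (edgeR adjusted p = 0.410 and 0.946). miR-122-5p averaged 1469 ± 883 CPM (SD, n = 5) in young and 1533 ± 671 (SD, n = 4) in old serum. Of 9 epithelial miRNAs none passed, with a median of 0.10. The most abundant of them were miR-205-5p, of stratified epithelium, at 0.34, miR-141-3p and miR-200b-3p, of the miR-200 family, at 0.33 and -0.40, and miR-375-3p, of endocrine cells, at 0.62. Of 4 miRNAs of kidney tubules none passed, with a median of 0.13. They did not move together: miR-10a-5p was at 1.08 ± 0.42 SE (edgeR adjusted p = 0.118), miR-30a-5p at 0.20, miR-30a-3p at 0.06 and miR-204-5p at -0.66. The summed level of the 4 ranged from 32286 to 110908 CPM in young and from 72022 to 201307 CPM in old serum, of which miR-10a-5p made up the larger part (a mean of 75032 CPM over all serum libraries), and its part in the result for miR-192-5p and miR-215-5p was not tested. In muscle the same 4 had group mean sums of 10070 to 13911 CPM, so they are not confined to kidney. The summed liver level ranged from 3491 to 17895 CPM in young and from 4617 to 10601 CPM in old serum, where miR-122-3p was at 0 in all 4 libraries. Of 6 p53-responsive miRNAs tested none passed, with a median of -0.04.

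Of 8 erythrocyte miRNAs tested in old against young serum, 2 were lower and passed, beside 7.27% of all 165. These were miR-451a, made in red cells (-0.82 ± 0.24 SE, edgeR adjusted p = 0.0363), and miR-144-5p, encoded beside it (-2.16 ± 0.48 SE, edgeR adjusted p = 0.0154). The median of the 8 was -0.34. Their summed level ranged from 261008 to 801655 CPM in young and from 207005 to 587142 CPM in old serum, so the groups overlapped. With the erythrocyte miRNAs taken out of the table the old-against-young log2 fold changes were 1.20 for miR-192-5p and 1.07 for miR-215-5p (edgeR adjusted p = 0.0133 for both). None of the 5 leukocyte and platelet, 2 endothelial and 2 muscle miRNAs tested passed. No marker of any of these lists passed in disuse against young serum or in old against disuse serum.

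The ratio of miR-192-5p to the hepatocyte miRNA miR-122-5p was 3.07 ± 1.21 (SD, n = 5) in young serum, 3.73 ± 0.24 (SD, n = 4) in old and 2.92 ± 0.31 (SD, n = 5) in disuse serum, on the log2 scale. The old libraries were above all disuse libraries (difference 0.81, exact permutation p = 0.0159, adjusted p = 0.0857) and overlapped the young ones (difference 0.66, exact permutation p = 0.317), an overlap that rested on young serum 1. Without that library the difference from young serum was 1.18, with 4 young libraries at 2.17 to 2.93 and the old ones at 3.47 to 3.97 (exact permutation test, adjusted p = 0.110). Young serum 1, with 149 CPM of miR-122-5p against 1172 to 2382 in the other young serum libraries, set most of the spread in young serum. The ratios of miR-215-5p and miR-194-5p to miR-122-5p overlapped between old and disuse serum (differences 0.74 and -0.08, exact permutation p = 0.0635 and 0.857). They also overlapped between old and young serum (0.53 and -0.70, exact permutation p = 0.571 and 0.651).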

How the data were processed

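Small RNA was sequenced in 15 muscle and 14 serum libraries, which were grouped by their labels. Trizol was used to extract muscle RNA and a serum and plasma kit for serum RNA, per the labels' protocols, and TruSeq small RNA libraries were made from 2 µg or 10 ng. Bowtie and build mm10 come from the submitters' processing notes. The sources used here do not give the Bowtie version, the miRNA annotation or the treatment of multiply matching reads. The values the authors deposited are raw read counts for each mature miRNA, not normalized. For 695 of 1183 miRNAs there is a value in each library. The other 488 have 28 values and hold 17450 counts, 0.0518% of muscle counts. They were left out. Because they lack an entry in the final column of what the authors deposited, its unit was recorded as other, although its remaining entries are counts.

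The 3 miRNAs, the marker lists and the tests were chosen with earlier results of these data known. Tests used edgeR 4.0.16 (quasi-likelihood, TMM factors, filterByExpr, Benjamini-Hochberg adjustment over all miRNAs tested) in R 4.3.3, with the muscle and the serum libraries each fitted together. Serum was compared with muscle within each of the young, old and disuse mice, and interactions were fitted over all 29 libraries. Passing means an adjusted p below 0.05. The SE is the log2 fold change divided by the square root of F. Ratios and correlations were tested by permutation in scipy 1.17.1, with 100000 resamples for correlations. The script was tested on simulated data. The text names the 3 miRNAs, their other arms, at most 4 members of each list by mean CPM (and those of a list that passed) and the 5 miRNAs most like each in serum. Alternatives were other scaling factors (DESeq2 1.42.0), filters, tests (DESeq2, limma 3.58.1), a replicate block and leaving out each library.

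Replicates are taken from the labels' numbers. No label says that they came from separate mice, so the p-values reflect only the spread between the samples, which could be technical. The 56 pairs of libraries within groups differed by a chi-square per degree of freedom of at least 6.03. A count of 0 allows up to 3 counts of the library total. Such limits and the binomial intervals cover counting error only, since amplified reads lack molecular identifiers and do not each stand for a molecule. Sequences are from RefSeq and gene models from GENCODE, on GRCm38, which is the build mm10.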

Additional observations from a re-analysis of the deposited data

Results flagged for a closer look

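Of 45 sets of 4 or 5 libraries checked for a single library far from the rest, 5 held one, and chance alone gives about 1 in 20. All 5 are ratios of counts on the log2 scale. Young muscle 3 had a miR-192-5p to miR-194-5p ratio of 3.46, against 2.21 to 2.43 in the other young muscle libraries, on a single count of miR-194-5p. Disuse serum 1 had a miR-192-5p to miR-194-5p ratio of 7.01, against 5.86 to 6.18 in the other disuse serum libraries. Young serum 1 had a miR-192-5p to miR-122-5p ratio of 5.14, against 2.17 to 2.93 in the other young serum libraries, and a miR-194-5p to miR-122-5p ratio of 0.52, against -3.92 to -2.86. Old serum 2 had a miR-194-5p to miR-122-5p ratio of -4.72, against -3.00 to -2.81 in the other old serum libraries.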

How the results depend on the processing

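Old against young serum kept its direction under all settings. Over the alternatives other than leaving out a library, miR-192-5p stayed past the threshold in 10 of 10 and miR-215-5p in 9 of 10, the exception being library totals (0.91). Leaving out each library in turn gave log2 fold changes of 0.90 to 1.33 for miR-192-5p and 0.87 to 1.20 for miR-215-5p.

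Old against disuse serum for miR-192-5p fell short of the threshold with library totals (1.07), no filter (1.04) and a filter of 10 CPM (1.11). For miR-215-5p it fell short with those settings (1.01, 0.93 and 1.01) and with upper-quartile factors (0.97). Without each library in turn the ranges were 0.94 to 1.27 and 0.94 to 1.17. The age interaction of miR-192-5p passed with DESeq2's factors (1.38), upper-quartile factors (1.41) and DESeq2's test (1.38), and without each library it ranged from 0.90 to 1.55, past the threshold in 9 of 29. The cause of these shifts was not tested.

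Signs turned where the difference was small. In disuse against young serum, miR-192-5p and miR-215-5p were at 0.0144 and 0.0021 with DESeq2's factors, 0.125 and 0.101 with no filter, 0.110 and 0.0990 with a filter of 10 CPM, 0.0146 and 0.00096 with DESeq2's test, 0.0478 and 0.0227 without erythrocyte miRNAs, 0.0602 and 0.0411 with only the groups compared, and miR-192-5p was at 0.0143 with upper-quartile factors. In old against young muscle, miR-192-5p was at 0.0547 with no filter, 0.0141 with a filter of 10 CPM, 0.0163 without erythrocyte miRNAs and 0.0401 with the incomplete miRNAs right-aligned. miR-194-5p with upper-quartile factors was at -0.15 in old against young and -0.11 in disuse against young muscle. In old against disuse muscle it was at 0.0148 with DESeq2's factors, 0.0262 with library totals, 0.0315 with no filter, 0.0165 with a filter of 10 CPM, 0.0112 with DESeq2's test and 0.0116 with the incomplete miRNAs right-aligned.

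Whether the replicate numbers pair the samples was not settled. Over 42 same-numbered pairs the deviations from the group means correlated between -0.28 and 0.38, with 11 over 0.1. In 9 of these 42 pairs the library of the first group correlated best with its own number in the second. Each match was chosen among 4 or 5 libraries, so some arise by chance. Old serum with old muscle had 3 of 4 pairs over 0.1, and old with disuse serum 2 of 4. In old with disuse serum, 3 of 4 libraries correlated best with their own number. In every other group pair 0 to 2 did. With a replicate block, old against disuse serum gave 1.08 for miR-192-5p and 0.94 for miR-215-5p (edgeR adjusted p = 0.0617 for both), with 0 calls in place of 4, and the disuse interaction of miR-215-5p was 0.0150. Old against young serum gave 14 calls in place of 16 and kept both.

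Without each library in turn, signs turned in disuse against young serum (miR-192-5p -0.13 to 0.0590, miR-215-5p -0.20 to 0.0465) and in old against young muscle (miR-192-5p -0.15 to 0.12, miR-194-5p -0.18 to 0.28). They also turned for miR-194-5p in disuse against young (-0.0617 to 0.32) and old against disuse muscle (-0.29 to 0.14). The interactions of miR-194-5p with age (-0.53 to 0.16) and miR-215-5p with disuse (-0.86 to 0.17) turned too. These interaction values are listed but not read, since both miRNAs entered that fit through their serum counts.

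For the ratios, a pseudocount of 1 turned old against young muscle to 0.10 for miR-192-5p to miR-215-5p and to 0.16 for miR-194-5p to miR-215-5p. Leaving out each library turned miR-192-5p to miR-194-5p in old against young muscle (-0.26 to 0.0667), miR-194-5p to miR-215-5p in old against young (-0.47 to 0.16), disuse against young (-0.52 to 0.11) and old against disuse muscle (-0.18 to 0.30), and miR-192-5p to miR-215-5p in old against young (-0.0635 to 0.29), disuse against young (-0.13 to 0.23) and old against disuse serum (-0.0192 to 0.16). It also turned ratios to miR-122-5p: miR-194-5p in old against young (-1.02 to 0.0943) and old against disuse serum (-0.27 to 0.37), and miR-192-5p (-0.37 to 0.37), miR-194-5p (-0.93 to 0.18) and miR-215-5p (-0.59 to 0.50) in disuse against young serum. With library totals the serum correlations of miR-194-5p were 0.14 with miR-192-5p and 0.32 with miR-215-5p, and that of miR-192-5p with miR-194-5p in muscle was 0.49 (permutation test, adjusted p = 0.174).

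Counts of calls by setting, and without each library, ranged from 5 to 21 and from 1 to 20 in old against young serum and from 0 to 6 in both for old against disuse serum. In muscle they ranged from 16 to 36 and 17 to 27 (old against young) and from 8 to 18 without each library (old against disuse). For the age interaction they ranged from 0 to 11, and for serum against muscle the highest counts were 270 in young and 327 in disuse mice. Depth limits miR-194-5p, with 5 to 54 counts per serum and 1 to 83 per muscle library, and miR-215-5p in muscle, with 0 to 20.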
